A study of Mus musculus with 59 samples.

Results

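Steady-state RNA was compared between Zcchc8 knockout (KO) and wild-type (control) mouse embryonic stem cells (ESCs) before any transcription block, over all genes and by gene family. The comparison used the 4 libraries at 0 h of an Actinomycin D series, 2 of KO and 2 of control cells, out of 59 samples in the whole series. These 4 libraries were chosen from the labels alone (genotype and 0 h), and no measured value entered that choice. The gene lists were chosen with earlier results of these data known, so their shares and medians are descriptions and no list was tested as a set. The ESC lines came from blastocysts of the BDF1 strain and grew with serum, leukaemia inhibitory factor (LIF) and 2 kinase inhibitors, CHIR99021 and PD0325901. ERCC spike-in RNA was added per the labels, and ribosomal RNA was depleted with the KAPA RiboErase kit from total RNA. Both genotypes shared strain, medium and kit. The sources used here do not give the removed part of Zcchc8 or the number of KO lines. Nothing in the labels says whether replicates were separate cultures, so p-values cover the library-to-library spread alone, possibly technical. That spread was estimated over all 12 libraries of the Actinomycin D series (0, 4 and 8 h), most of them treated, and not over these 4 alone.

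ZCCHC8 is the zinc-knuckle scaffold of the nuclear exosome targeting (NEXT) complex, in which it joins the RNA-binding protein RBM7 to the helicase MTR4. NEXT hands short, unprocessed and promoter-derived nuclear transcripts to the RNA exosome, a ribonuclease complex that degrades them from the 3′ end. Steady-state RNA reflects both synthesis and decay, so a difference at 0 h does not say which of them differed.

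Values were the authors' normalised read counts, here called deposited values. Reads counted per library were 624466 and 465324 in control replicates 1 and 2, and 882495 and 813702 in KO replicates 1 and 2. With 1 read worth 1.32 to 3.23 deposited units, the 3-read floor lay between 3.95 and 9.69 units. The sum of values without Rn45s, the ribosomal RNA precursor, was 690451 in control replicate 1, against 1283659, 1251479 and 1241274 in control replicate 2 and the KO replicates. Control replicate 1 thus stood apart from the other 3 libraries. For this reason each result is given on the deposited values and on values rescaled with edgeR's trimmed mean of M-values (TMM), which centres the bulk of genes. The TMM factors were 0.993 for control replicate 1 and 0.539 to 0.562 for the other 3. Changes are differences of mean log2(value + 1), KO minus control, and a gene is called where limma's adjusted p (Benjamini-Hochberg over 6952 genes tested) was below 0.05. On this scale the change of a gene with few reads depends on the added 1 and can be understated or overstated.

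Zcchc8 itself, the targeted gene, had deposited values of 59.3 and 77.5 in the control libraries (45 and 24 reads) and 25.3 and 5.29 in the KO libraries (15 and 3 reads). Both KO libraries lay below both control libraries. The change was −2.42 (SE 0.681, adjusted p = 0.0332 by limma) on deposited and −2.75 (SE 0.655, adjusted p = 0.0398) on rescaled values. Without KO replicate 2 the change was −1.39 (adjusted p = 0.509) and −1.81 (adjusted p = 0.347). On rescaled values it was also not called without KO replicate 1 (adjusted p = 0.0592), control replicate 1 (0.101) or control replicate 2 (0.0863). With edgeR's quasi-likelihood test the deposited change was −2.13 and was not called (adjusted p = 0.0795), and the rescaled change was −2.59 (adjusted p = 0.0448). Of 15 tested genes of NEXT, the exosome and their partners, Zcchc8 was the 1 called lower by limma, and 0 were called higher on either scale (2 and 1 at an unadjusted p below 0.05, and 0 with edgeR). Skiv2l2, which encodes MTR4, had values of 216 and 388 in control and 273 and 413 in KO (adjusted p = 0.855). Exosc4, an exosome ring subunit named here after its values were seen, had a change of 1.63 (adjusted p = 0.0577).

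Across all genes the deposited values stood higher in KO, but this shift depended on control replicate 1. Of 6952 genes, 294 (4.23%) were called higher and 5 (0.0719%) lower, the median change was 0.44, and 77.8% of genes had a change above 0. The median was 0.017 without control replicate 1 and 0.805 without control replicate 2. Without KO replicate 1 or KO replicate 2 it was 0.427 and 0.487. In 2594 genes (37.3%) both KO libraries lay above both control libraries, and in 227 (3.27%) both lay below. After rescaling, 94 genes (1.35%) were called higher and 27 (0.388%) lower, the median was 0.01, and 50.8% of changes were above 0. Without overlap, 1600 genes (23%) then stood above and 1516 (21.8%) below. The rescaling thus moved the median of all genes from 0.44 to 0.01 and the calls from nearly one-sided to mixed. On both scales 93 genes (1.34%) were called higher and 4 (0.0575%) lower. All 294 genes called higher on deposited values had a rescaled change above 0. With the spread taken from the 4 libraries at 0 h alone, 70 genes were called higher on deposited values, 65 of them among the 294. On rescaled values 95 were, 63 of them among the 94. The calls depended on single libraries: the deposited higher count was 1132 without control replicate 2, 57 without KO replicate 1 and 53 without KO replicate 2. Without control replicate 1 it was 291, of which 163 were among the 294. On rescaled values it was 216 without control replicate 1, 70 without control replicate 2, 7 without KO replicate 1 and 2 without KO replicate 2. Of the 93 calls of named genes on deposited values, 20 held without each of the 4 libraries, and of 65 on rescaled values 3 did (Smpdl3b, 4930470H14Rik and Grin1os).

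**Figure D1:**
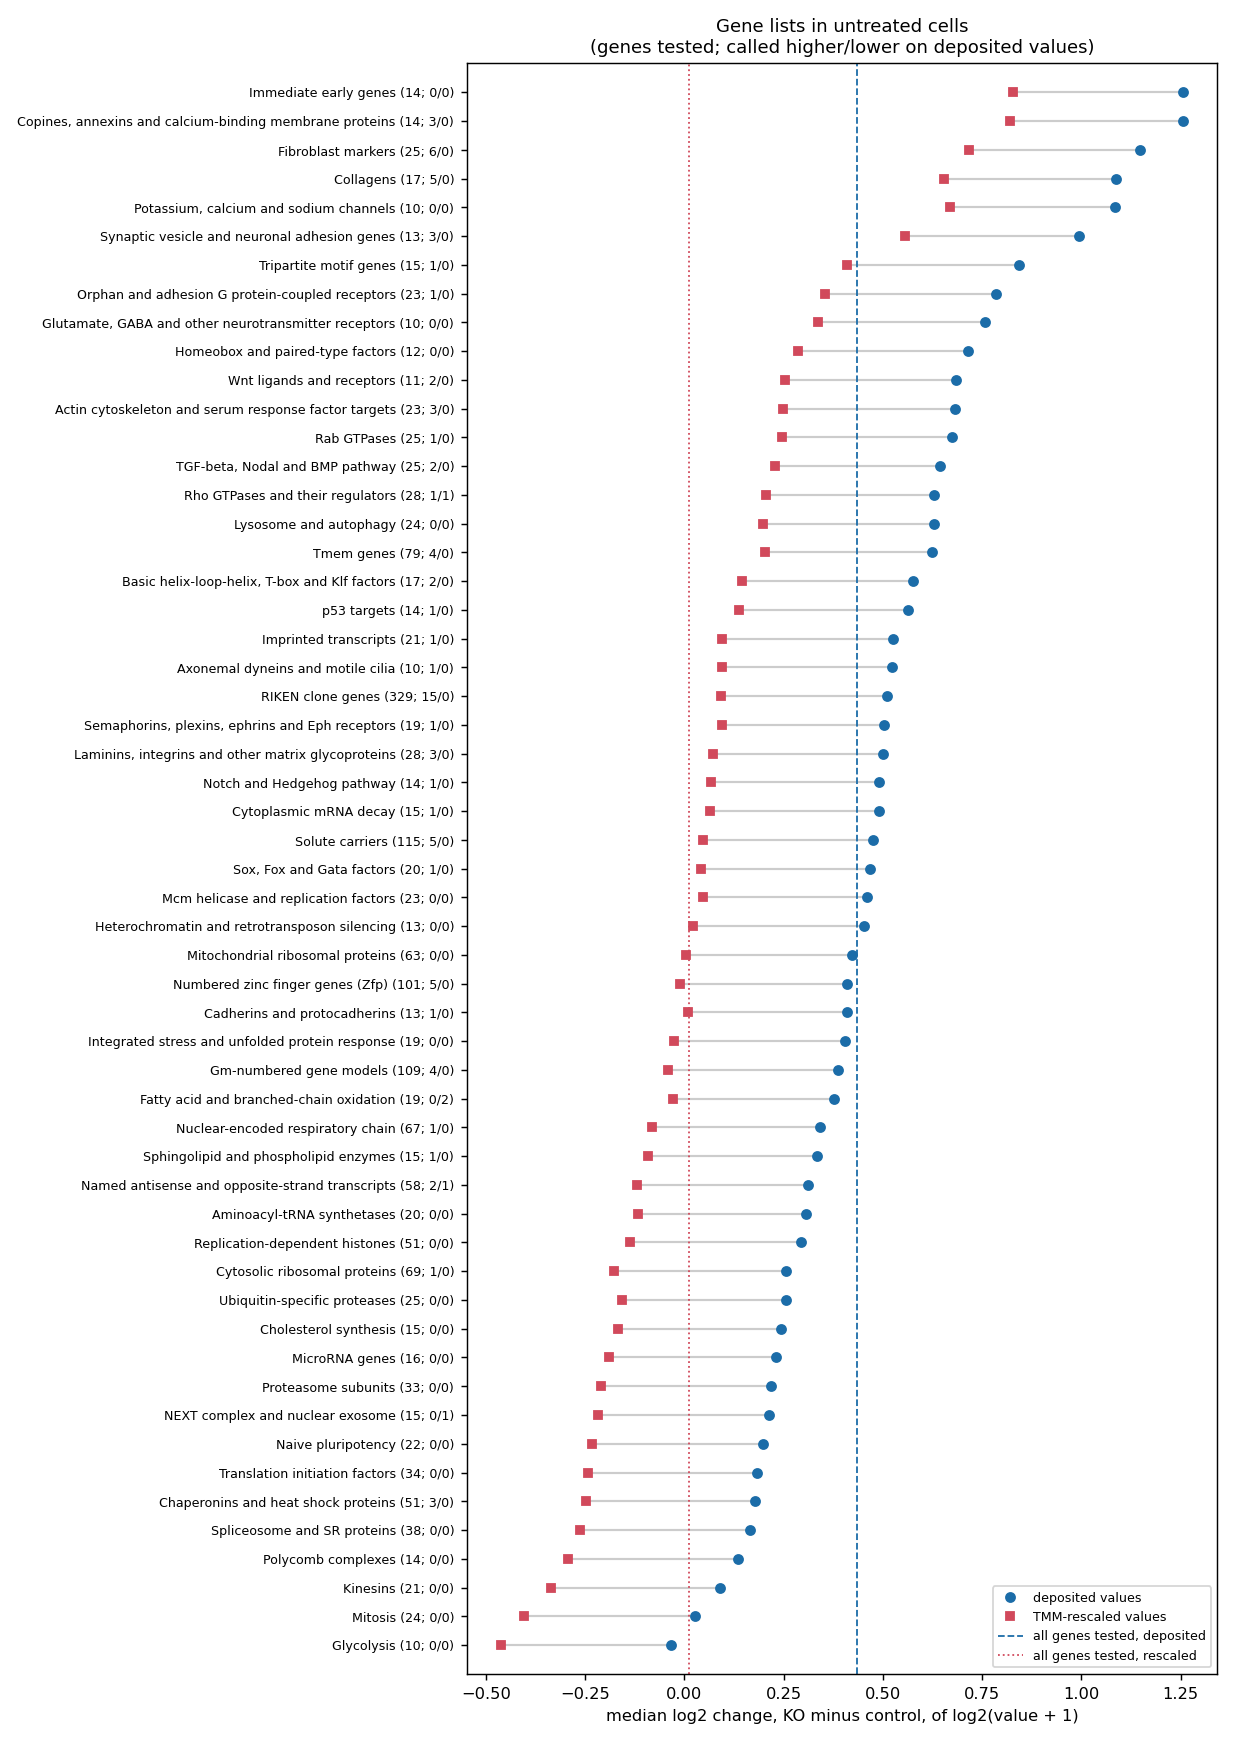
Median log2 change (x axis, KO minus control, log2 of value plus 1) of each gene list with at least 10 tested genes (y axis), on deposited (circles) and rescaled (squares) values, with the medians of all genes as vertical lines at 0.44 and 0.01. Brackets give the genes tested and the number called higher/lower on deposited values. Immediate early genes, copines and annexins, fibroblast markers and collagens lie farthest to the right on deposited values, and kinesins, mitosis genes and glycolysis farthest to the left.

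Genes of the extracellular matrix and of mesenchymal cells stood higher in KO. Over all genes, 4.23% were called higher on deposited and 1.35% on rescaled values. Of 17 tested collagens, 5 were called higher and 0 lower on deposited values, with a median change of 1.09, and 3 were called higher after rescaling (median 0.66). Of 25 fibroblast markers, 6 and 4 were called higher and 0 lower, with medians of 1.15 and 0.72 against 0.44 and 0.01 over all genes. On both scales 24 of the 25 had a change above 0, against 77.8% and 50.8% of all genes. These lists share members: 7 of the 17 collagens are also fibroblast markers, and of the other 10, 4 were called higher on deposited and 3 on rescaled values. Among 28 laminins, integrins and other matrix glycoproteins, 3 and 2 were called higher, but the medians of 0.50 and 0.07 were close to those of all genes.

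Col16a1, a collagen associated with fibrils, had 22.4 and 38.8 units in control and 113 and 116 in KO. The KO libraries were both higher, with a change of 1.92 (SE 0.439, adjusted p = 0.00696) and 1.48 after rescaling (adjusted p = 0.0174). Col8a1, a short-chain network collagen, had 52.7 and 110 in control and 281 and 182 in KO, a change of 1.56 (adjusted p = 0.0187) and 1.12 after rescaling (adjusted p = 0.0304). Lamb1, the beta chain of laminin in basement membranes, had 90.9 and 122.7 against 424 and 284, with changes of 1.71 (adjusted p = 0.00722) and 1.27 (adjusted p = 0.0306). Tnc, encoding the adhesion-modulating glycoprotein tenascin C, had 470 and 843 against 1715 and 1425, and its changes were 1.31 (adjusted p = 0.032) and 0.88 (adjusted p = 0.0188). Each of these 4 genes was called on both scales with no overlap between groups. Col11a1, a fibrillar collagen of cartilage, Col27a1 and Thbs2 rose on deposited values (changes of 1.72, 3.55 and 1.30) and were not called after rescaling (adjusted p = 0.0799, 0.109 and 0.105). In Col27a1 control replicate 1 had 0 reads and control replicate 2 had 1, so its fitted change depends on the added 1 and is no bound. The major fibrillar collagens were not called on either scale: Col1a1 had 3065 and 5123 units in control and 9415 and 7058 in KO (changes of 1.04 and 0.61, adjusted p = 0.0835 and 0.0799).

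The mesenchymal genes with calls included an adhesion molecule, a surface antigen and a filament. Cdh11, a mesenchymal cadherin, had 51.4 and 38.8 units in control and 217 and 129 in KO (changes of 1.88, adjusted p = 0.00517, and 1.44 after rescaling, adjusted p = 0.0451). Thy1, a glycolipid-anchored surface protein, had 55.3 and 93.7 against 214 and 247, and was called on both scales (rescaled change 1.23, SE 0.242, adjusted p = 0.0142). Vim, the intermediate filament vimentin, had 481 and 769 against 1743 and 1379, also called on both (rescaled change 0.92, SE 0.182, adjusted p = 0.0148). Twist1, a mesenchymal transcription factor, had 21.1 and 29.1 against 91.0 and 102, and was called on deposited values only (adjusted p = 0.0438, and 0.131 after rescaling). All 4 rose in both KO libraries relative to both control libraries. With KO replicate 1 left out, limma called 0 collagens and 0 fibroblast markers on either scale. Without KO replicate 2 it called 0 collagens and 1 fibroblast marker on deposited values, without control replicate 1, 2 and 3, and without control replicate 2, 12 and 21. The fibroblast median stayed between 0.59 and 1.58 over these 4 omissions and both scales. At an unadjusted p below 0.05, 22 of the 25 fibroblast markers stood higher on deposited and 19 on rescaled values, where 1 stood lower. Of all 6952 genes, 1183 and 645 stood higher at that threshold.

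Most of these are also markers of fibroblasts, so the marker list was read per library. The summed deposited value of the fibroblast list was 8048 and 13440 in control and 25330 and 19350 in KO, so the markers were present in all 4 libraries and the sums of the groups did not overlap. Of the defining markers, Postn and Pdgfrb were listed at 0 in all 4 libraries and Dcn at 0 in 3. These 3 genes have several transcripts, and in this table genes with several transcripts were often at or near 0, as were Nanog and Esrrb, so such a 0 is not a measure of the RNA. The culture protocol in the labels does not mention feeder cells. In bulk RNA, more cells of a type and more RNA per cell cannot be told apart. The part of fibroblast-like cells in the result was not tested. Among defining markers with 1 transcript, those of primitive endoderm (Gata4, Gata6, Sox7), trophoblast (Cdx2, Hand1, Krt7) and mesoderm (T, Mixl1, Mesp1, Kdr) were at 12 reads or fewer in each library. Of the wider primitive endoderm list 4 of 22 genes were tested. Where 4.23% and 1.35% of all genes were called higher, 2 of these 4 were on deposited and 1 on rescaled values (medians 1.05 and 0.62). The 2 were Lamb1 and Thbd, the gene of the anticoagulant receptor thrombomodulin (2.63 and 16.2 against 55.6 and 24.7). The summed value of that list was 622 and 1063 in control and 1452 and 1090 in KO, and the part of such cells in the result was not tested.

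Among actin cytoskeleton genes, Acta2, Tpm4 and Actg2 rose on both scales. Many genes of this list are targets of serum response factor (SRF), which drives contractile and cytoskeletal genes from a CArG box together with actin-regulated cofactors. Of 23 tested members 3 were called higher and 0 lower on each scale, where 4.23% and 1.35% of all genes were called higher. Their medians were 0.68 and 0.25, against 0.44 and 0.01 over all genes, and 4 of the 23 are also fibroblast markers. On deposited values the list had 0 calls without KO replicate 1 or control replicate 1, 1 without KO replicate 2 and 14 without control replicate 2. Acta2, smooth muscle alpha-actin, had 313 and 475 units in control and 1080 and 906 in KO. Both KO libraries lay above both control libraries, with changes of 1.36 (SE 0.362, adjusted p = 0.0243) and 0.92 (SE 0.181, adjusted p = 0.0142). Tpm4, a tropomyosin that coats actin filaments, had 144 and 242 against 467 and 458, with changes of 1.30 (adjusted p = 0.0349) and 0.87 (adjusted p = 0.0466). Its exons overlap Gm26586 on the other strand. Actg2, enteric smooth muscle actin, had 5.27 and 12.9 (4 reads in each control library) against 67.4 and 31.7, with changes of 2.34 (adjusted p = 0.00951) and 1.89 (adjusted p = 0.0391). The ubiquitous Actb, at 3004 and 4545 against 6048 and 5436, was not called on either scale (adjusted p = 0.356 and 0.613). Srf and Zyx, the gene of a focal adhesion protein, overlapped between groups (changes of 0.21 and −0.04). On rescaled values the calls of Acta2 were lost without KO replicate 1 (adjusted p = 0.156), KO replicate 2 (0.0965) and control replicate 2 (0.116), and those of Tpm4 and Actg2 without any 1 of the 4 libraries.

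The 250 bases before the annotated start of Acta2 and of Tpm4 are shown because both rose on both scales and belong to a list defined by a DNA-bound factor. They were taken from RefSeq on GRCm38.p6, at chr19:34255374-34255623 (minus strand) and chr8:72135038-72135287 (plus strand), and read 5′ to 3′ towards the gene. Capitals mark the loose outline of a CArG box, CC and GG with any 6 bases between them, which reads the same on both strands, and neighbouring matches may join.
Acta2: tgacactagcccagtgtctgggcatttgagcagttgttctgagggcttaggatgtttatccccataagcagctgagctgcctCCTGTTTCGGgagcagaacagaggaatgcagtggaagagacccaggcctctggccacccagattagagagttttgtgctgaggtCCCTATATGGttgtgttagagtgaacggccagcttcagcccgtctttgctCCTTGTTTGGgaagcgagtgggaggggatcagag
Tpm4: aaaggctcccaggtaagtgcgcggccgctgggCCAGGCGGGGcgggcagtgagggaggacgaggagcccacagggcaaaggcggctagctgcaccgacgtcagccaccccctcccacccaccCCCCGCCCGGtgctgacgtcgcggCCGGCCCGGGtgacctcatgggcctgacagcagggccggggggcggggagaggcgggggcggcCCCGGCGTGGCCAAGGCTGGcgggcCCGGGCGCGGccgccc
Acta2 held 3 matches, the nearest 34 bases before the start, and Tpm4 held 6. The loose outline was found in 66.7% of 27025 promoters of the same length and in 82.4% of 5477 promoters of genes tested. Its presence in both promoters is thus a description only. The strict CArG box, with A or T at all inner positions, was in neither promoter. The Acta2 matches CCCTATATGG and CCTTGTTTGG missed it by an inner C and an inner G. Whether SRF binds any of these matches was not tested. The strict box occurred in 1.4% of all promoters and in 1.26% of those of genes tested. Of the 19 list members with a promoter in the table, 4 held it (Cnn2, Myl9, Srf and Vcl), none of which was called. Actg2 was not among the promoters of the table.

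**Figure D2:**
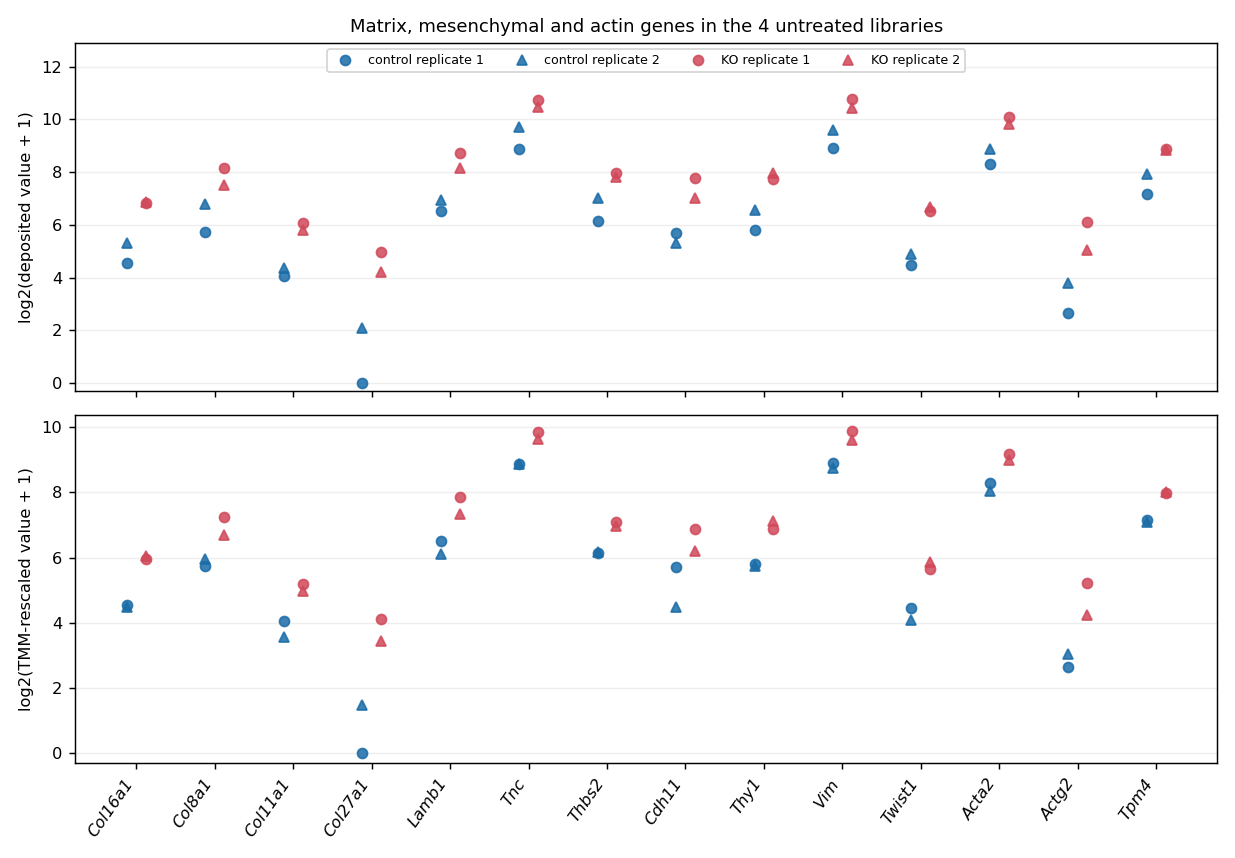
log2 of value plus 1 (y axis) of 14 matrix, mesenchymal and actin genes (x axis) in each of the 4 untreated libraries, on deposited (top) and TMM-rescaled values (bottom). Each point is 1 library. On deposited values both KO libraries lie above both control libraries for all 14 genes, and on the rescaled scale the gaps are narrower.

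Immediate early genes, which are induced within minutes of growth factor or stress signals through ERK and SRF, stood higher as a list with no single call. All 14 tested members had a deposited change above 0 (median 1.26) and 13 had a rescaled change above 0 (median 0.83), while 0 were called on either scale by limma or edgeR (4 and 1 had an unadjusted p below 0.05). Junb, an AP-1 subunit, had 54.0 and 64.6 units in control and 177 and 175 in KO (change 1.56, adjusted p = 0.124). Fosl2, another AP-1 subunit, had 30.3 and 51.7 against 136 and 125 (change 1.70, adjusted p = 0.204). In 13 of the 14 both KO libraries lay above both control libraries on deposited values, against 37.3% of all genes, and in 11 on rescaled values, against 23%. Their median stayed between 0.76 and 1.62 over both scales when each of the 4 libraries was left out. Junb lies on chromosome 8 and overlaps Prdx2 on the other strand. Of 9 tested FGF ligands, receptors and feedback genes of ERK, a kinase pathway that PD0325901 blocks, 1 was called higher on each scale. Over all genes the shares called higher were 4.23% and 1.35%. Fgf17, a secreted FGF, had 25.0 and 16.2 units in control and 165 and 183 in KO, with changes of 3.05 (adjusted p = 0.00242) and 2.59 (adjusted p = 0.0357). Its call was lost without KO replicate 2 on deposited values (adjusted p = 0.0605) and without either KO library or control replicate 2 on rescaled values (0.197 to 0.225). The list medians were 1.48 and 1.05. Spry4, a feedback inhibitor named after its values were seen, had 13.2 and 6.46 against 74.1 and 52.9 and was not called (adjusted p = 0.13), and Spry2, of the same family, had 107 and 132 against 106 and 89.9 (adjusted p = 0.871).

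Other signalling families held single calls against a background shift. Over all genes, 4.23% were called higher on deposited and 1.35% on rescaled values. In the TGF-beta, Nodal and BMP pathway 2 of 25 genes were called higher on deposited and 1 on rescaled values, with medians of 0.64 and 0.23. Lefty2, a secreted inhibitor of Nodal, had 101 and 281 units in control and 564 and 483 in KO. Both KO libraries were above both control libraries, with changes of 1.62 (adjusted p = 0.0163) and 1.19 (SE 0.244, adjusted p = 0.0167). Its deposited call was lost without KO replicate 1 (adjusted p = 0.212), KO replicate 2 (0.092) or control replicate 1 (0.233). Inhbb, the beta B chain of activins and inhibins, had 63.2 and 93.7 against 219 and 190 and rose on deposited values only (adjusted p = 0.0396, and 0.0709 after rescaling). Nodal itself and Lefty1 were not called (adjusted p = 0.636 and 0.979). Among 11 Wnt ligands and receptors 2 were called higher on deposited values and 1 after rescaling. Fzd1, a Wnt receptor, had 10.5 and 6.46 units against 75.8 and 82.9, with changes of 3.11 (adjusted p = 0.0009) and 2.62 (adjusted p = 0.0155), and its deposited call held without each of the 4 libraries, while its rescaled call was lost without 3 of them (adjusted p = 0.102 to 0.142). Wnt4, a ligand, had 9.22 and 12.9 against 64.0 and 38.8 and was called on deposited values only (2.09, adjusted p = 0.0282). Of 8 targets of beta-catenin, the Wnt effector that CHIR99021 stabilises, 0 were called on either scale by limma or edgeR (1 higher and 1 lower on deposited values, and 1 and 2 on rescaled values, had an unadjusted p below 0.05). The medians were −0.14 and −0.56, and the former was 0.10 without KO replicate 2 and 0.27 without control replicate 2. Notch3 (change 1.50, adjusted p = 0.0413) and the semaphorin co-receptor Nrp1 (1.96, adjusted p = 0.0302) rose on deposited values and were not called after rescaling (adjusted p = 0.0758 and 0.103).

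Neural genes included some of the larger changes. Of 13 tested synaptic, neurofilament and neuronal adhesion genes 3 were called higher and 0 lower on each scale, where 4.23% and 1.35% of all genes were called higher, and the medians were 0.99 and 0.56 against 0.44 and 0.01. On rescaled values the list had 0 calls without either KO library and 2 without either control library, and its median was 0.10 without control replicate 2. Nefm, the medium neurofilament subunit, had 7.90 and 22.6 units in control (6 and 7 reads) and 110 and 102 in KO, with changes of 2.88 (adjusted p = 0.0013) and 2.44 (adjusted p = 0.00898). Nefh, the heavy subunit, had 25.0 and 29.1 against 108 and 136, with changes of 2.12 (adjusted p = 0.00514) and 1.68 (adjusted p = 0.0195). Nefl, the light subunit, overlapped between groups (change 0.46, adjusted p = 0.769), and Nefm shares exon sequence with it on the other strand. Hepacam, a glial adhesion molecule, had 2.63 and 22.6 against 113 and 143, with changes of 3.79 (adjusted p = 0.00182) and 3.34 (adjusted p = 0.0209). On deposited values the Nefm call held without each of the 4 libraries, and those of Nefh and Hepacam were lost without KO replicate 2 (adjusted p = 0.0986 and 0.0525). Of 24 listed neuroectoderm markers 7 passed the filter on low values, which counts the KO libraries. Among these 7, 2 were called higher on deposited and 0 on rescaled values. Sox1, a transcription factor of the early neural plate, had 2 and 1 reads in control and 34 and 26 in KO, that is 2.63 and 3.23 units against 57.3 and 45.8 (changes of 3.74, adjusted p = 0.0146, and 3.20, adjusted p = 0.0541). Tubb3, neuronal beta-tubulin, had 51.4 and 54.9 against 165 and 127 (1.43, adjusted p = 0.0413, and 0.99, adjusted p = 0.172). Of 131 listed channel genes and 98 listed neurotransmitter receptors, 10 each passed the filter and 0 were called. Their medians were 1.09 and 0.76 on deposited values and 0.67 and 0.34 on rescaled values. All tested genes with a mean up to 20 units over the 4 libraries had medians of 0.79 and 0.39. The part of the filter in the list medians was not tested. Sox1 and Tubb3 lie on chromosome 8, whose 420 tested genes had a rescaled median of 0.20, and its part in these changes was not tested.

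**Figure D3:**
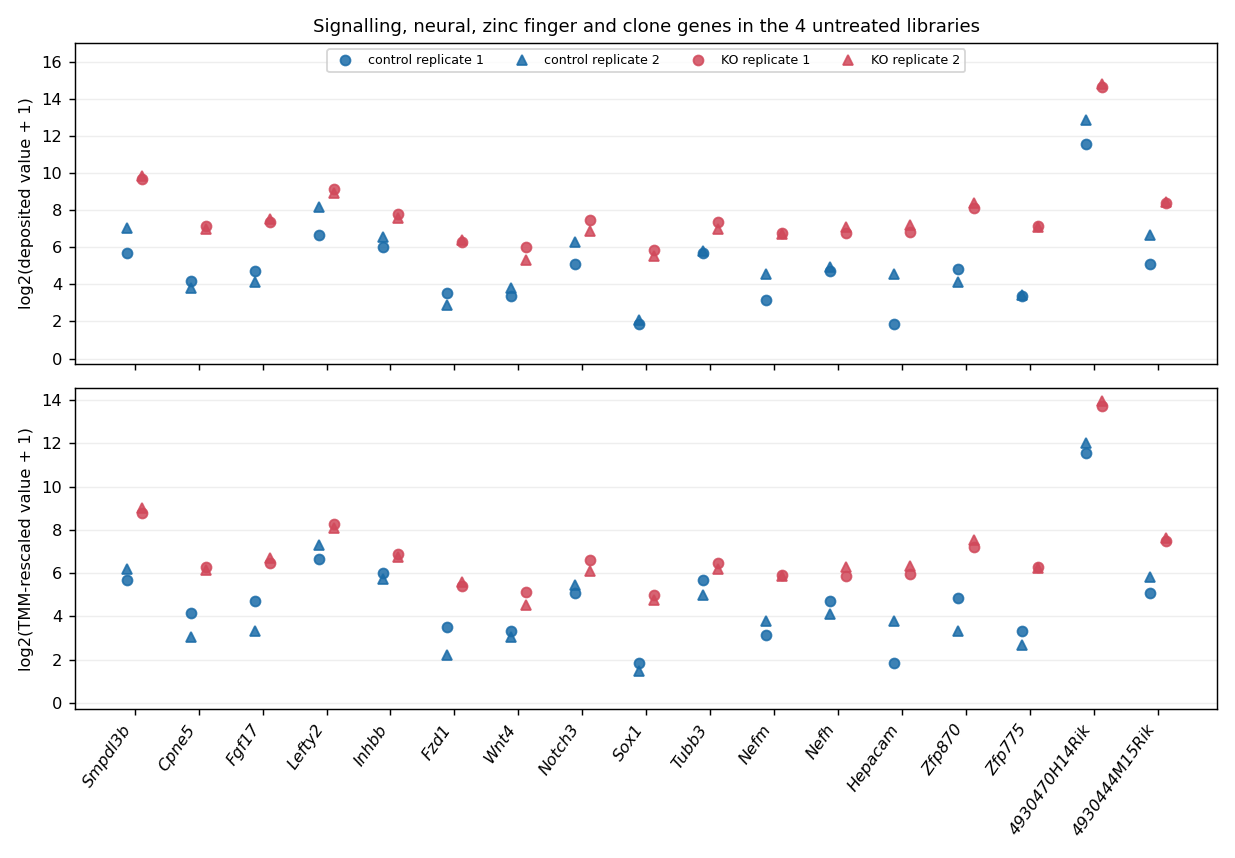
log2 of value plus 1 (y axis) of 17 signalling, neural, zinc finger and clone genes (x axis) in each of the 4 untreated libraries, on deposited (top) and TMM-rescaled values (bottom). Each point is 1 library, and both KO libraries lie above both control libraries for all 17 genes.

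Genes of membranes and lipids gave the call with the smallest p. Smpdl3b, a glycolipid-anchored phosphodiesterase, had 51.4 and 129 units in control and 814 and 912 in KO. Both KO libraries lay above both control libraries, and the changes of 3.38 (SE 0.436, adjusted p = 6.61e-06) and 2.95 (SE 0.321, adjusted p = 0.000191) held without each of the 4 libraries. No other of the 15 tested sphingolipid and phospholipid enzymes was called on either scale, and the medians were 0.33 and −0.09. Of 14 copines, annexins and S100 proteins, which bind membranes or partners in response to calcium, 3 were called higher on deposited and 1 on rescaled values, with medians of 1.26 and 0.82. Cpne5, a copine, had 17.1 and 12.9 units in control and 142 and 125 in KO, with changes of 3.08 (adjusted p = 0.000505) and 2.61 (adjusted p = 0.00977), the former held without each of the 4 libraries and the latter lost without 3 of them (adjusted p = 0.0688 to 0.127). Anxa3 and Anxa1, phospholipid-binding annexins, rose on deposited values (2.08 and 1.65) and were not called after rescaling (adjusted p = 0.0744 and 0.186). Of 115 solute carriers 5 (4.35%) were called higher on deposited and 1 on rescaled values, and of 79 Tmem genes 4 (5.06%) and 0, shares near the 4.23% and 1.35% of all genes. Slc35e2 was the carrier called on both scales (47.4 and 103 against 239 and 330, rescaled change 1.55, adjusted p = 0.0381). Tmem252 had 0 reads in both control libraries and 10 and 18 in KO, so no fold is given.

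Transcription factor families gave few calls. Of 101 tested numbered zinc finger genes 5 (4.95%) were called higher on deposited and 2 on rescaled values, with medians of 0.41 and −0.01. Over all genes the shares called higher were 4.23% and 1.35%. Zfp870 had 27.7 and 16.2 units in control and 271 and 330 in KO (changes of 3.76, adjusted p = 0.000105, and 3.30, adjusted p = 0.0061). Zfp775 had 9.22 and 9.69 against 142 and 134 (3.73, adjusted p = 0.0013, and 3.25, adjusted p = 0.0155), and both overlap a gene model on the other strand, as do Trim72, Hydin, Slc35e2 and Cpne5. Klf1, the erythroid Krüppel-like factor, had 26.3 and 12.9 against 136 and 134 and was called on both scales (2.80, adjusted p = 0.00514, and 2.34, adjusted p = 0.0494). None of 12 homeobox and paired-type factors was called on either scale by limma or edgeR (2 and 1 had an unadjusted p below 0.05). Trim72, a muscle membrane repair protein, was the 1 call among 15 tripartite motif genes (3.95 and 16.2 against 92.6 and 84.6, rescaled change 2.83, adjusted p = 0.0299). Hydin on chromosome 8, needed for the beating of motile cilia, was the 1 call among 10 axonemal genes (7.90 and 3.23 against 165 and 131, that is 6 and 1 reads against 98 and 74, with changes of 4.59 and 4.04).

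Noncoding and clone genes were tested because NEXT acts on noncoding nuclear RNA. Of 363 genes of the noncoding RefSeq class, 19 (5.23%) were called higher and 0 lower on deposited values, against 275 of 6589 coding genes (4.17%), and 8 (2.2%) against 86 (1.31%) on rescaled values. The median deposited changes were 0.43 for the noncoding and 0.44 for the coding class. Of 329 RIKEN clone genes 15 and 6 were called higher, and of 109 Gm-numbered models 4 and 1. The noncoding clone gene 4930470H14Rik had 3047 and 7442 units in control and 25130 and 27940 in KO, with changes of 2.48 (SE 0.394, adjusted p = 0.00013) and 2.04 (SE 0.244, adjusted p = 0.000384), held without each of the 4 libraries. In 4930444M15Rik the values were 32.9 and 100.1 against 334 and 347 (2.54, adjusted p = 0.0014, and 2.11, adjusted p = 0.0117). For 4930578M01Rik, with 0 and 1 reads in control against 35 and 56 in KO, the fitted changes of 5.23 and 4.69 depend on the added 1. Among 9 nuclear long noncoding RNAs, Nespas and Tsix were called higher on deposited values and Nespas on rescaled values. Both lie antisense to a gene (Gnas and Xist), and without a stated strand setting reads of the partners cannot be told apart. None of the 51 replication-dependent histone genes and none of the 16 microRNA genes tested was called by limma on either scale. At an unadjusted p below 0.05, 1 of each list stood higher on deposited values, and edgeR called 1 histone gene higher on them. On rescaled values 1 histone gene stood higher and 5 lower at that threshold, and 1 microRNA gene lower. Of all 6952 genes, 645 stood higher and 400 lower there.

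Outside the lists, 36 genes had a call on both scales, a mean of at least 100 in KO and groups without overlap, and the 20 with the largest rescaled change are named. The largest rescaled changes were those of Nt5c2, a cytosolic nucleotidase (2.63 and 6.46 against 89.3 and 134, rescaled change 3.91), and Gpn3, a GTPase of RNA polymerase assembly (23.7 and 0 against 92.6 and 148, 3.73). Control replicate 2 had 0 reads of Gpn3, so its fitted change depends on the added 1: it was 1.40 without control replicate 2 and 6.03 without control replicate 1, and edgeR did not call it on rescaled values. Nt5c2 overlaps Ina, and Gpn3 overlaps Fam216a, on the other strand. Ap1b1, a clathrin adaptor subunit, had 18.4 and 25.8 units in control and 206 and 168 in KO (2.58, adjusted p = 0.00423). Tex2, a lipid transfer protein of the endoplasmic reticulum, had 107 and 184 against 827 and 882 (2.16, adjusted p = 0.000547). Pgpep1, a pyroglutamyl peptidase, had 47.4 and 110 against 421 and 508 (2.23, adjusted p = 0.000547), and Rnpepl1, an aminopeptidase, 39.5 and 67.8 against 308 and 372 (2.25, adjusted p = 0.000846). Grem1, a secreted BMP antagonist, had 38.2 and 25.8 against 180 and 162 (1.96, adjusted p = 0.00624). Myo5a and Myo1f, myosin motors, had rescaled changes of 2.08 and 2.04, and Dpagt1 and Mogs, enzymes of N-glycan synthesis and trimming, 2.05 and 1.81. Others were Ube2l6, an enzyme for the ubiquitin-like ISG15 (1.99), Manba, a lysosomal mannosidase (1.70), Tspan31, a tetraspanin overlapping Cdk4 on the other strand (1.72), and Rbfa, a mitochondrial ribosome assembly factor (1.69). The rule also gave Olfr94 (31.6 and 58.1 against 241 and 268) and, with rescaled changes of 1.78 to 1.95, Ssc4d, H2-M5, Btbd19 and Rprl3. On deposited values the calls of Nt5c2, Gpn3, Ap1b1, Tex2, Pgpep1, Rnpepl1, Grem1, Olfr94 and Myo5a held without each of the 4 libraries. On rescaled values each of the 20 lost its call without KO replicate 2.

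Pluripotency genes and most housekeeping families gave few or no calls. Of 22 naive pluripotency genes 0 were called on either scale, with medians of 0.20 and −0.23, and their summed value was 4145 and 7055 in control and 6380 and 5790 in KO. Pou5f1, the core pluripotency factor, had 186 and 294 units in control and 258 and 303 in KO. Sox2 had 611 and 1134 against 852 and 868, and on deposited values both genes overlapped between groups. By limma and edgeR no call was also made among 38 spliceosome and SR protein genes (medians 0.17 and −0.26), 34 translation initiation factors (0.18 and −0.24), 33 proteasome subunits (0.22 and −0.21), 24 mitosis genes (0.03 and −0.41), 21 kinesins (0.09 and −0.34) and 10 glycolysis genes (−0.03 and −0.46). At an unadjusted p below 0.05 these 6 lists held 0 to 3 genes each higher on deposited values and 2 to 9 each lower on rescaled values. Their medians lay below those of all genes on both scales, and 5 of the 6 changed sign with the scaling. Abundant genes as a class also lay below all genes. Those with a mean of 100 to 500 units over the 4 libraries had medians of 0.34 and −0.09, and those over 500 had 0.27 and −0.16. The lists were not matched by level, and its part in their medians was not tested. The glycolysis median was below 0 on both scales, but on deposited values it was 0.10 without KO replicate 2 and 0.30 without control replicate 2. Of 69 cytosolic ribosomal proteins 1 was called higher on each scale (Rpl10l, a near copy of Rpl10 whose reads are uncertain) and Rpl17 lower after rescaling, with medians of 0.26 and −0.18. In 8 of the 10 glycolysis genes both KO libraries lay below both control libraries on rescaled values, against 21.8% of all genes, and in 0 on deposited values, against 3.27%. Stress lists gave 1 call each for interferon and RNA sensing (Bst2, change 1.99, adjusted p = 0.0338) and p53 targets (Bax, 1.28, adjusted p = 0.0446), neither called after rescaling, and 0 among 19 genes of the integrated stress response.

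Few genes were lower in KO, and which ones depended on the scale. On deposited values the 5 were Zcchc8, Grin1os, Rhoa, Mut and Acaa2, and 4 of them were also called after rescaling, where Mut was not (adjusted p = 0.0544). Grin1os, annotated antisense to the glutamate receptor gene Grin1, had 55.3 and 155 units in control and 13.5 and 15.9 in KO, with changes of −2.59 (adjusted p = 0.0013) and −2.95 (adjusted p = 0.000547) that held without each of the 4 libraries. Rhoa, the GTPase that controls actin stress fibres, had 15 and 8 reads in control and 4 and 0 in KO (19.8 and 25.8 units against 6.74 and 0). Its call was lost without KO replicate 2 on both scales (adjusted p = 0.421 and 0.272) and on rescaled values also without control replicate 1 (0.0783) or 2 (0.0675), and its exons overlap Tcta on the other strand. Acaa2, a mitochondrial thiolase of fatty acid oxidation, had 46.1 and 142 against 23.6 and 21.2, with changes of −1.82 (adjusted p = 0.0438) and −2.20 (adjusted p = 0.0157). Without KO replicate 1, KO replicate 2 or control replicate 2 it was not called on either scale (adjusted p = 0.12 to 0.225). Sdr39u1 was called lower only after rescaling, with 277 and 785 against 286 and 273 (rescaled change −1.16, adjusted p = 0.017). Pigh, a subunit of the enzyme that starts glycolipid anchor synthesis, had 310 and 627 against 199 and 180 (−1.64, adjusted p = 0.0061). Plagl1, an imprinted zinc finger gene, had 256 and 539 against 209 and 199 (−1.29, adjusted p = 0.00946). Pigh, Plagl1, Sdr39u1 and Mut overlap another gene on the other strand, as do 14 of the 27 genes called lower. Rock1, a kinase activated by RhoA, had 111 and 149 against 37.1 and 72.3 (−1.70, adjusted p = 0.0299). Rbmxl2, Lhpp and Mtdh had rescaled changes of −1.09, −2.20 and −1.15.

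Small nucleolar and Cajal body RNAs gave 1 call. These RNAs guide modification of ribosomal and spliceosomal RNA and are processed from introns. All 8 tested genes had a change below 0 on both scales, with medians of −0.66 and −1.002, and 0 were called on deposited values and 1 lower after rescaling. In 2 of the 8 both KO libraries lay below both control libraries on deposited values, against 3.27% of all genes. On rescaled values this held in 5 of the 8, against 21.8% of all genes. The summed deposited values of all listed genes overlapped (341 and 633 in control, 435 and 319 in KO). Scarna13 had 27.7 and 77.5 units in control (21 and 24 reads) and 13.5 and 15.9 in KO (8 and 9 reads), with a rescaled change of −1.97 (adjusted p = 0.0213). Snora78, named after its values were seen, had 13.2 and 58.1 against 6.74 and 10.6 (adjusted p = 0.312). The list median was −0.10 on deposited values without KO replicate 2 and −1.41 without KO replicate 1. The 8 are a small share of the family, since 114 such genes were listed and the rest did not pass the filter on low values. The 6 tested host transcripts of such RNAs had medians of −0.36 and −0.77 with 0 calls, and the deposited median was 0.09 without KO replicate 1 and 0.39 without control replicate 2. Of the polymerase III RNAs, Rmrp had 6241 and 11490 against 5482 and 7479 and Rpph1 3965 and 5372 against 2771 and 3493, neither called on either scale. Of the 10 genes with the highest mean deposited value, which is not per length, 4930470H14Rik was the 1 called. Among the others were Rn45s (132000 and 219400 against 234800 and 193400), Eef1a1, a translation elongation factor (5604 and 8676 against 8335 and 7811), and Hsp90ab1, a chaperone (5043 and 7823 against 6607 and 6649).

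**Figure D4:**
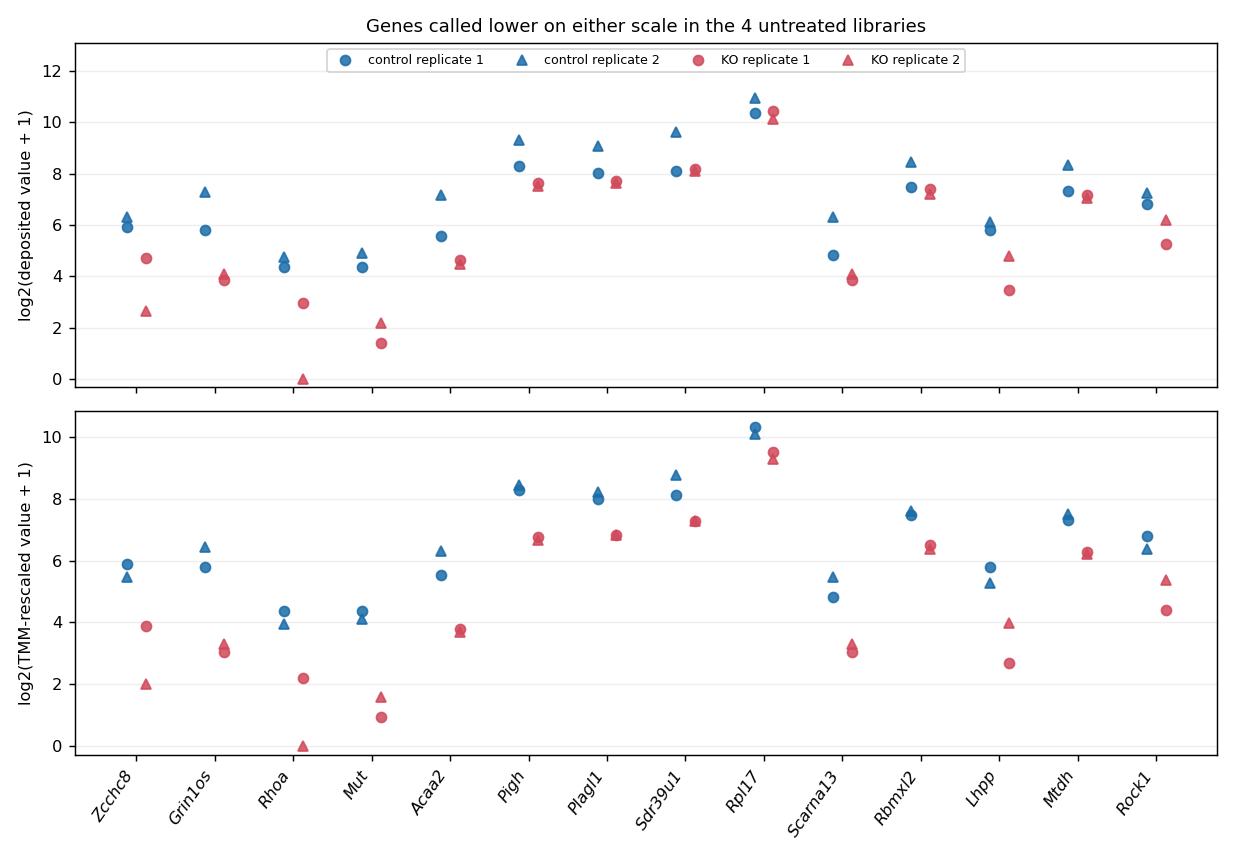
log2 of value plus 1 (y axis) of 14 genes called lower on either scale (x axis) in each of the 4 untreated libraries, on deposited (top) and TMM-rescaled values (bottom). Each point is 1 library. For Rpl17 and Sdr39u1 the groups overlap on deposited values and separate after rescaling.

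By chromosome, 3 of 20 stood apart on rescaled values. The 203 tested genes of chromosome 18 had a median change of −0.39, with 30.5% above 0, and held 7 of the 27 genes called lower, among them Acaa2, Rpl17 and Rock1. The 336 genes of chromosome 6 had a median of 0.31, with 70.8% above 0, and the 420 of chromosome 8 a median of 0.20, with 66.2% above 0. The medians of the other 17 chromosomes ran from −0.09 to 0.06. Over the 4 pairs of 1 KO with 1 control library the median ran from −0.45 to −0.28 on chromosome 18, from 0.23 to 0.34 on chromosome 6 and from 0.16 to 0.26 on chromosome 8. The same 3 chromosomes had medians of −0.37, 0.25 and 0.18 at 4 h and −0.41, 0.24 and 0.20 at 8 h of Actinomycin D, in other libraries of the same genotypes. On chromosome 8 lie Sox1, Tubb3, Cdh11, Tpm4, Klf1, Nrp1, Bst2, Hydin, Pgpep1 and Rprl3 among the genes called higher, and on chromosome 6 Actg2, Zfp775 and Mogs. Chromosomes were compared after the data were seen, and their part in these calls was not tested. Without the genes of these 3 chromosomes 244 genes were higher and 4 lower on deposited values, and 75 and 20 on rescaled values.

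**Figure D5:**
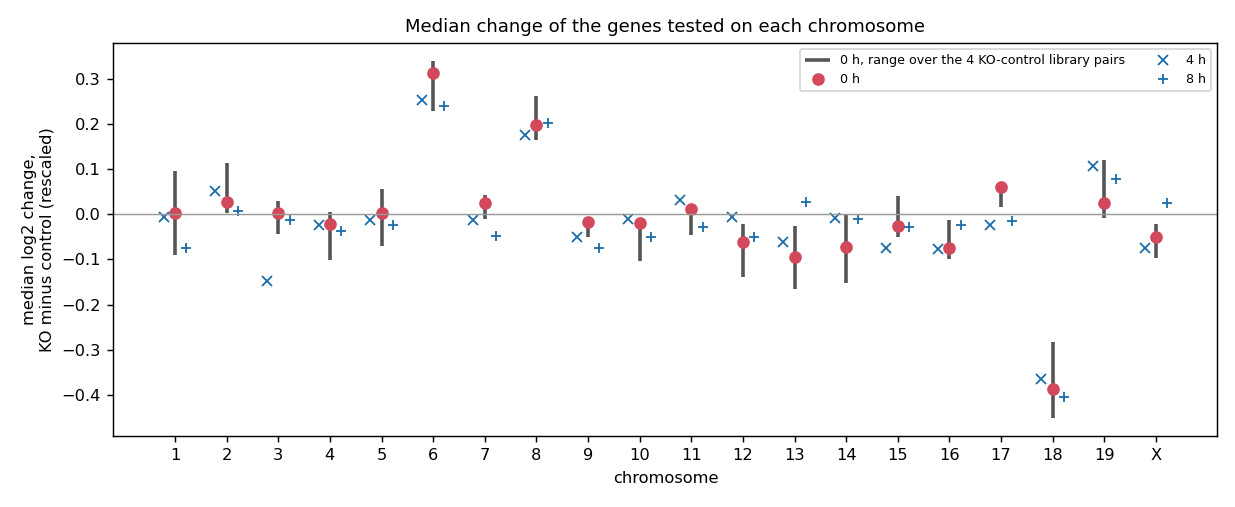
Median rescaled log2 change, KO minus control (y axis), of the tested genes of each chromosome (x axis) at 0 h (circles), 4 h and 8 h (crosses), with bars for the range over the 4 KO-control library pairs at 0 h. Chromosome 18 lies at −0.39, chromosome 6 at 0.31 and chromosome 8 at 0.20, and the others lie between −0.09 and 0.06 at 0 h.

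The calls were spread over exon numbers, while the changes varied with the level. On deposited values 6.27% of genes with 1 exon were called higher, 6.4% with 2 to 3 exons, 4.19% with 4 to 6, 3.75% with 7 to 10, 3.34% with 11 to 20 and 4.21% with over 20. After rescaling these shares ran from 0.987% to 1.7% in no order of exon number. By mean value over the 4 libraries, the median deposited change fell from 0.79 (up to 20 units) to 0.27 (over 500 units). On rescaled values it fell from 0.39 to −0.16 between the same bins. The share called higher went from 4.54% to 3.23% on deposited values and from 0.626% to 2.24% on rescaled values. Genes called higher on deposited values had a median value of 17.9 in control and 84.7 in KO, and 4 had 0 reads in both control libraries. Of the 294, 94 (32.0%) overlap an annotated exon on the other strand, as do 2578 of the 6952 genes tested. The KO change at 0 h was also compared with its mean at 4 and 8 h in the same fit, and 1 gene of 6952 (0.0144%) was called on each scale. This was Hist1h4i, a replication-dependent histone H4 gene, with 213 and 255 units in control and 495 and 518 in KO at 0 h. None of the genes called at 0 h was called in this test. At an unadjusted p below 0.05 it held 194 genes with a positive and 109 with a negative difference on deposited values. Of the 294, 272 had a change above 0 at 4 h and 276 at 8 h on deposited values. Of the 94 called higher on rescaled values, 87 and 75 had a rescaled change above 0 at these times. The shares of all genes above 0 at 4 and 8 h were not computed, so these counts have no background beside them. The count of this test was 73 without control replicate 1 and 19 without control replicate 2.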

How the data were processed

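Total RNA of untreated (0 h) Zcchc8 KO and control ESCs was analysed, in 2 libraries each. The authors' processing used TopHat2 2.1.1, HTSeq 0.6.0 and DESeq2 with the mm9 build, per the submitters' processing notes. The unit of the deposited table is a normalised signal: each library's read counts divided by 1 factor, as its low values show, since whole reads were recovered for 100.0% of values in each library (tolerance 0.001). The sources used here do not give how the factors were set or the strand setting of the counting. Of 33896 rows, 978 repeated ones were dropped, and 32918 transcripts were summed to 23974 symbols. The 12 libraries of the Actinomycin D table (0, 4 and 8 h) were fitted together on log2(value + 1) for 6952 genes with a mean of at least 10, with limma 3.58.1 in R 4.3.3 and Benjamini-Hochberg adjustment. The same fit was made on values rescaled with TMM (edgeR 4.0.16). Alternatives included edgeR's quasi-likelihood test on the recovered reads and DESeq2 1.42.0 size factors. The code was tested on simulated counts, where the share of false calls ran above the nominal threshold. The other 47 samples were not analysed here.

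Gene lists and members were chosen with earlier results of these data known. Named genes were Zcchc8 and Skiv2l2, up to 4 called members per list by smallest p (2 where none was called), defining markers, and outside the lists up to 20 genes called higher on both scales with a KO mean of at least 100 and no overlap. Up to 12 genes called lower, by rescaled p and with a control mean no lower than 20, and the 10 of highest mean value completed the rule. Actb, Srf, Zyx, Nodal, Lefty1, Nefl, Spry2, Spry4, Exosc4 and Snora78 were named after their values were seen. Many of the 4888 genes with several transcripts in the table hold few or no reads (414 of them were tested), and their low values were not read as absence. Chromosomes, exon counts and RNA classes came from a RefSeq table on GRCm38 matched by symbol, and other-strand overlaps from a GENCODE annotation of GRCm38, since no mm9 annotation was used. The deposited values held 0 rows named as ERCC spike-ins, so no spike-in scaling could be made from them.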

Additional observations from a re-analysis of the deposited data

Results flagged for a closer look

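For 1 gene the KO effect at 0 h differed from its mean at 4 and 8 h of Actinomycin D in a test of that difference. Hist1h4i had a change of 1.12 at 0 h (limma, adjusted p = 0.101), 4.36 at 4 h and 4.42 at 8 h on deposited values. The difference was −3.28 on the log2 scale (SE 0.488, adjusted p = 0.00022), and −3.27 on rescaled values (adjusted p = 0.000189).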

How the results depend on the processing

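The deposited count of 294 genes higher became 70 with the 4 libraries fitted alone, 155 with edgeR and 121 with a mean of at least 50. The 5 genes lower became 1, 2 and 0 in the same fits, 20 with no filter, 3 and 10 with pseudocounts of 0.5 and 4, and 2 without genes overlapping on the other strand (an alternative chosen after seeing the data). On rescaled values the 27 genes lower became 43 with DESeq2 size factors, 15 with a mean of at least 50, 12 with no filter and 13 without overlapping genes, and the 94 higher ran from 63 to 124 outside the omissions. Leaving out each of the 12 libraries in turn gave 53 to 1132 genes higher and 1 to 24 lower on deposited values, 2 to 216 and 1 to 99 on rescaled values, and 1 to 73 for the difference between times. With the replicate number as a block, 477 genes were higher and 12 lower on deposited values, and 110 and 33 on rescaled values; the 1 gene of the difference between times became 1. At 0 h the deviations of same-numbered KO and control libraries were correlated at 0.016 and 0.0149 over 6952 genes. This cannot show whether same-numbered libraries of the same genotype shared a culture across times, which was not tested. No named gene called on a scale changed direction there under any alternative run, but the medians of 33 of 68 lists on deposited and 31 on rescaled values changed sign without 1 of the 4 libraries at 0 h. Among the values of named genes under alternatives 763 lost their call and 2587 kept their side of the threshold. The causes were not tested. With 465324 to 882495 reads per 0 h library, values near the 3-read floor rest on few reads, and changes of such genes have wide errors.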
